A study of Mus musculus with 4 samples.

Results

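The postsynaptic density is the protein meshwork beneath the membrane of an excitatory synapse, where scaffold proteins hold glutamate receptors in place and tie them to signalling enzymes and to the actin skeleton of the dendritic spine. Membrane-associated guanylate kinases of the Dlg family bind receptor tails, Dlgap proteins bridge them to Shank, and Shank and Homer form a deeper layer. In the olfactory bulb such synapses sit on dendrites of mitral and tufted cells and, through the reciprocal contacts these cells make, on the spines of granule cells, the main inhibitory interneurons of the bulb. Transcripts of 33 postsynaptic scaffold and spine genes were followed here, and all 33 were found among the 20032 genes of the table. They were picked for their known roles, but with earlier results of these data known.

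RNA of whole olfactory bulbs was sequenced at postnatal day 11 in 4 libraries. The 2 DCKO (double conditional knockout) libraries came from mice carrying Dlx5/6-CIE, with Flox/Flox alleles at both Sp8 and Sp9. The 2 control libraries came from littermates labelled no cre, and whether these carried floxed alleles is not stated. All animals shared a background mixed from C57BL/6J, 129S6 and CD1. Both targeted genes encode transcription factors of the Sp family, and Dlx5/6 enhancers drive expression in forebrain GABAergic precursors and their progeny, a lineage that includes the bulb's interneurons and not the glutamatergic mitral and tufted cells. Nothing in the labels says whether the libraries of a genotype came from separate animals or from pools. The p-values thus rest on the spread between these libraries, which may be technical. In limma the spread of each gene is drawn toward that of genes of similar level.

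Levels are in FPKM, fragments per kilobase of transcript scaled to library depth, and a called gene is one with a Benjamini-Hochberg adjusted p below 0.05 in limma over the 13434 genes that averaged 1 FPKM or more. The log2 change is DCKO minus control on log2(FPKM + 1), a scale that shrinks the differences of weakly expressed genes. The deposited scaled counts summed to 14632502 to 15400982 per library. Those of the 33 genes lay between 128.9, for Lzts1, and 7773.7, for Sipa1l1, in any 1 library. Sp8 was at 1.68 and 2.03 FPKM in the DCKO libraries, against 31.96 and 26.7 FPKM in the control libraries, and Sp9 at 0.0674 and 0.236 FPKM in DCKO, against 24.03 and 30.7 FPKM in controls, so both were low in the libraries labelled DCKO. Each list of cell type markers chosen for the bulb was detected, with 0 of the listed genes in the table at 0 FPKM in any library. Summed FPKM of 10 granule cell and GABA markers was 159.3 and 192.8 in DCKO, against 1146.8 and 1161.9 in controls, and 10 of 10 fell. Summed FPKM of 9 mitral and tufted cell markers was 1851.5 and 1583.3 in DCKO, against 931.6 and 996.7 in controls, with 8 of 9 higher. For 12 genes used by neurons in general the sums were 2370.1 and 2196.4 FPKM in DCKO, against 2238.7 and 2327.4 FPKM in controls, with 3 lower and 2 higher. Among the other lists, 5 of 8 astrocyte markers (1310.2 and 1131.6 FPKM in DCKO, against 712.9 and 723.2 in controls), 6 of 8 microglia markers (143.9 and 153.0 in DCKO, against 91.8 and 89.1 in controls) and 2 of 6 endothelial markers (157.5 and 160.4 in DCKO, against 124.1 and 121.0 in controls) rose. None of 9 oligodendrocyte lineage or 5 tested olfactory sensory neuron markers passed limma's test (1 of each list had an unadjusted p below 0.05). Oligodendrocyte lineage sums were 1045.4 and 618.5 FPKM in DCKO, against 628.8 and 826.0 in controls. Olfactory sensory neuron sums, over 6 genes with the untested Ano2, were 201.3 and 164.5 FPKM in DCKO, against 296.9 and 113.5 in controls. The controls differed there, and each tested gene of that list was higher in control 1 than in control 2. Omp was at 98.4 and 20.1 FPKM, and Cnga2 at 10.2 and 0.303 FPKM, in controls 1 and 2.

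Most transcripts of the postsynaptic scaffold were lower in the DCKO bulbs. Of the 33 genes, 28 fell and 1 rose, and 4 did not pass the test. Among all tested genes, 14.3% fell and 13% rose, shares that also stand beside each count of smaller groups below. Because the 33 were chosen with earlier results of these data known, this contrast is a description and was not tested. The largest decreases were in the dendritic adhesion molecule Icam5 (7.19-fold) and the dendritic protein Ddn (6.37-fold), and the gene that rose was Iqsec1, a guanine nucleotide exchange factor for the small GTPase Arf6 (1.64-fold). Those that did not pass were Dlg1, Pick1, Lrrc4c and Homer3. The summed FPKM of all 33 was 528.3 and 544.8 in the DCKO libraries, against 1038.5 and 1084.5 in the control libraries. The median log2 change was -0.97, with quartiles of -1.36 and -0.50, beside a median of -0.02 over all tested genes.

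Among the 28 that fell, 5 were lower by more than 4-fold, 11 by between 2- and 4-fold and 12 by less than 2-fold. A called decrease of at least 1 on the log2 scale was seen in 15 of 33, where 3.05% of all tested genes had one. In 30 of the 33 both DCKO libraries lay below both controls and in 3 (Homer3, Iqsec1 and Lrrc4c) both lay above, so no gene had groups that overlapped; over all tested genes these shares were 37.6% and 33.9%. All 33 passed the filter on low values. The markers given above moved in the same libraries, and their part in these changes was not tested. In whole-bulb RNA, fewer cells of a type and less RNA per cell cannot be told apart. Centring on the general neuronal genes gave each library the same median log2 level of those 12 genes. Their own changes ran from -2.59 to 1.10. The median fell between Map2 and a gene that differed by library, Eno2 in DCKO, Syt1 in control 1 and Stmn2 in control 2. The offset is thus rough. Centring raised the median log2 change of all tested genes to 0.16 and left 26 of the 33 lower and 2 higher. Over all tested genes 1064 then fell and 3611 rose, against 1926 and 1747 with FPKM as deposited.

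**Figure D1:**
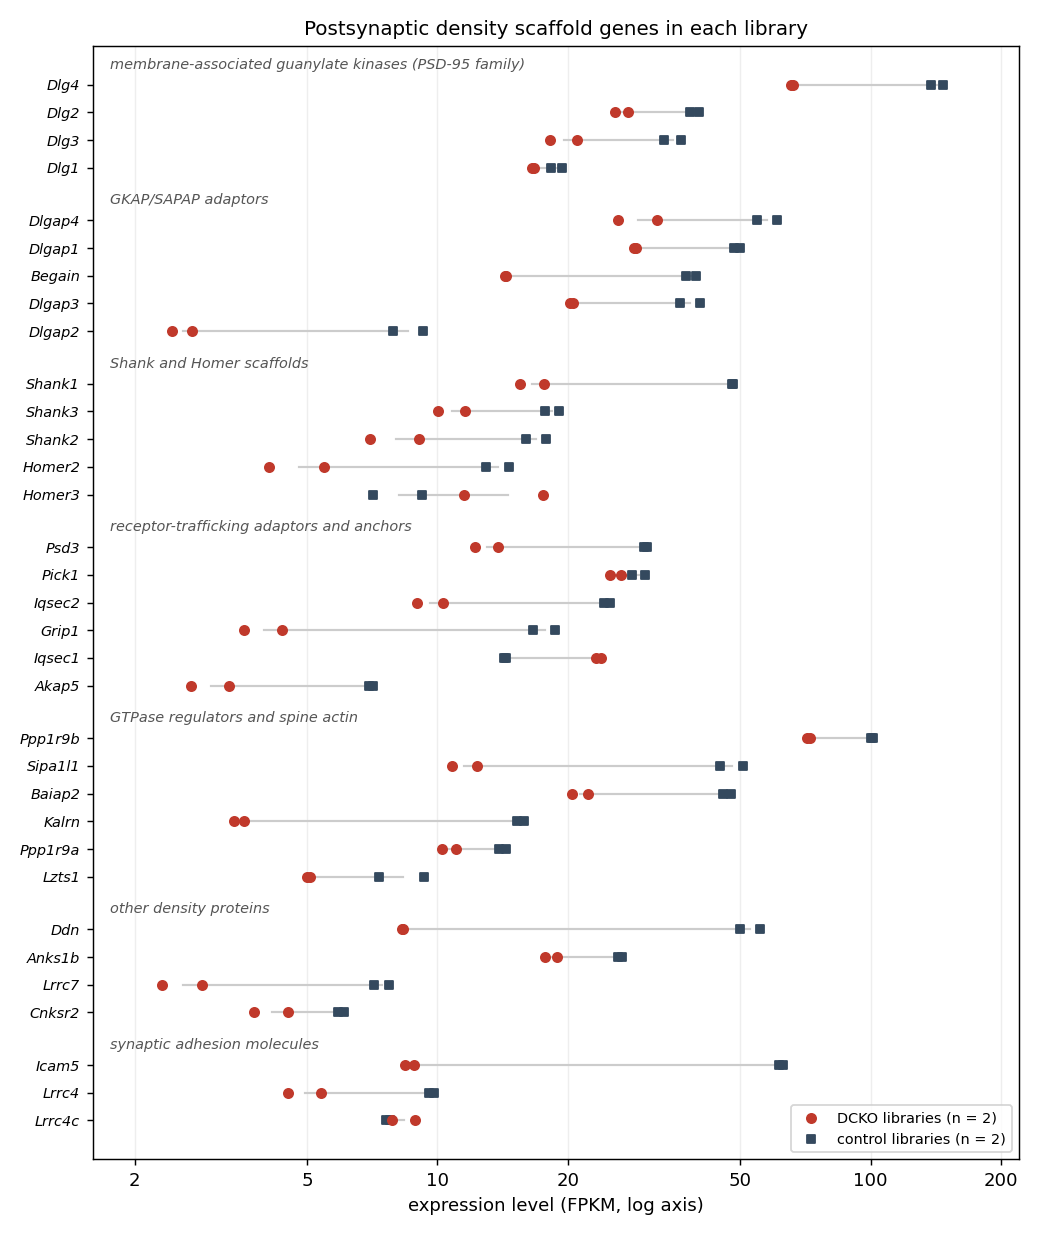
Level of each of the 33 genes in every library, in FPKM on a log axis, grouped by role and sorted within a role by control mean; red circles are the 2 DCKO libraries, dark squares the 2 control libraries, and grey lines join the group means. The DCKO points lie left of both control points for 30 genes and right of them for Homer3, Iqsec1 and Lrrc4c. Over all tested genes these shares were 37.6% and 33.9%.

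**Figure D2:**
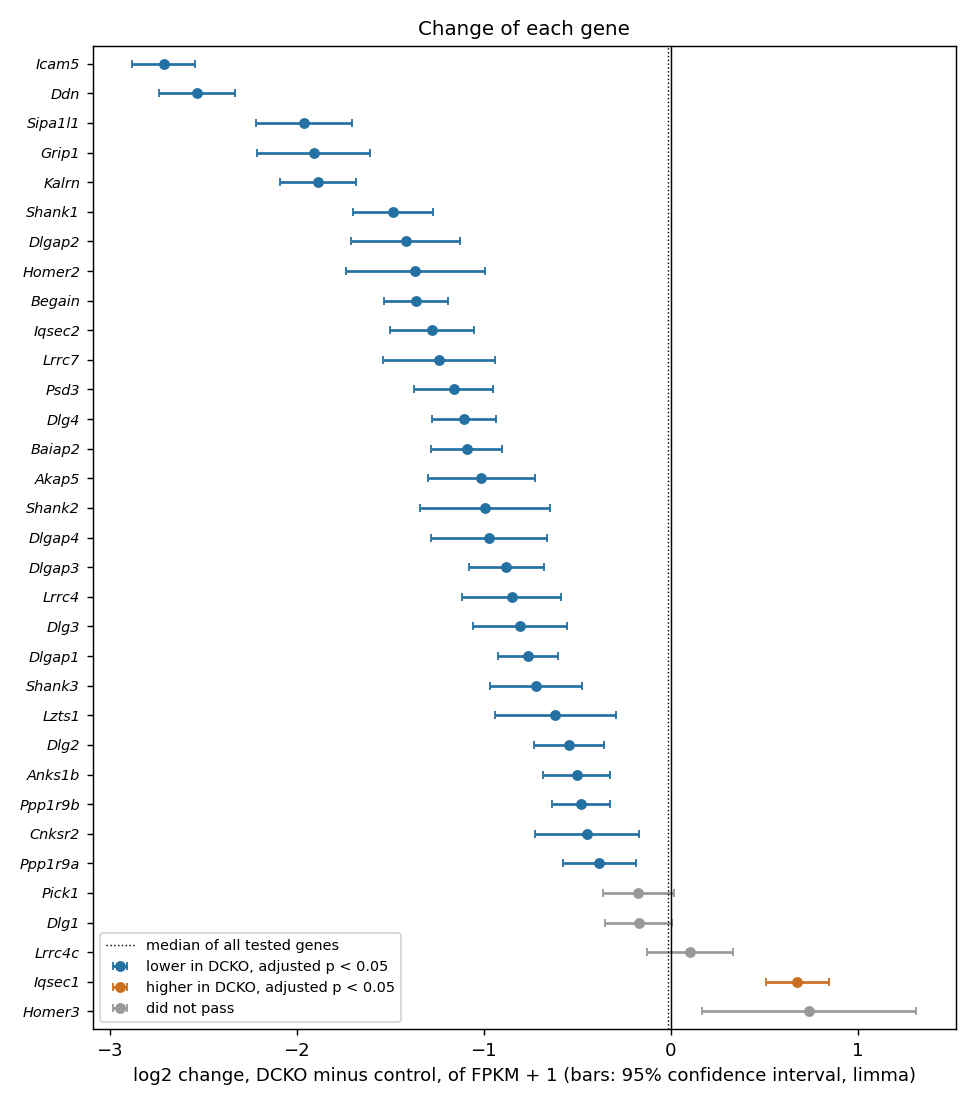
The log2 change of each gene, DCKO minus control, with its 95% confidence interval from limma, coloured by whether it passed an adjusted p of 0.05; the dotted line is the median of all tested genes. Changes run from -2.71 for Icam5 to 0.74 for Homer3, whose interval is the widest.

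The Dlg family supplies the main receptor-binding scaffolds, and 3 of its 4 genes fell. Dlg4, which encodes the abundant scaffold known as PSD-95, was at 65.4 and 66.1 FPKM in DCKO libraries, against 138 and 147 FPKM in control libraries. The DCKO pair lay close together and below both controls, a 2.17-fold lower mean (log2 change -1.10, SE 0.07, limma adjusted p = 0.00168). Dlg4 lies on chromosome 11, 70016942 to 70047522, + strand, in GRCm38 (GENCODE M21), and had the highest control mean of the 33 genes. Dlg3, the X-linked member of the family, was at 18.2 and 21.1 FPKM in DCKO, against 33.4 and 36.5 FPKM in controls (log2 change -0.81, adjusted p = 0.00805). Dlg2 was at 27.5 and 25.7 FPKM in DCKO, against 38.2 and 40.3 FPKM in controls (log2 change -0.54, adjusted p = 0.00978). Dlg1, whose product is also found along axons and in epithelia, was at 16.7 and 16.5 FPKM in DCKO, against 19.4 and 18.3 FPKM in controls. Its DCKO libraries were the lower pair, but by little, and it did not pass (log2 change -0.17, 95% confidence interval -0.35 to 0.01, adjusted p = 0.127). When libraries were centred on the general neuronal genes, the Dlg1 change was 0.0078. With these unequal changes Dlg4 made up 51.2% and 51.1% of the summed Dlg FPKM in DCKO and 60.3% and 60.7% in controls, while the share of Dlg1 was 13.1% and 12.8% in DCKO and 8.46% and 7.56% in controls.

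The adaptors that bind the guanylate kinase domain of Dlg proteins fell without exception, 5 of 5. These are the 4 Dlgap genes, whose products join Dlg to Shank, and Begain. Dlgap1 was at 28.8 and 28.4 FPKM in DCKO, against 48.4 and 49.9 FPKM in controls (log2 change -0.76, limma adjusted p = 0.00315). Dlgap3 was at 20.6 and 20.2 FPKM in DCKO, against 36.3 and 40.5 FPKM in controls (log2 change -0.88). Dlgap4 was at 26.1 and 32.1 FPKM in DCKO, against 54.8 and 60.9 FPKM in controls (log2 change -0.97), and its DCKO libraries were further apart than those of the other Dlgap genes. Dlgap2, the least abundant of the 4, was at 2.44 and 2.72 FPKM in DCKO, against 7.88 and 9.26 FPKM in controls. That is a 3.32-fold lower mean (log2 change -1.42, adjusted p = 0.00303), and its share of the summed Dlgap FPKM was 3.13% and 3.26% in DCKO and 5.35% and 5.77% in controls. Begain was at 14.4 and 14.3 FPKM in DCKO, against 37.5 and 39.5 FPKM in controls (2.68-fold lower, log2 change -1.36, adjusted p = 0.00112).

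All 3 Shank genes fell, as did Homer2, while Homer3 did not pass the test. Shank proteins are the master scaffolds of the deep layer and bind both Dlgap and Homer. Shank1 was at 15.5 and 17.6 FPKM in DCKO, against 48.2 and 47.8 FPKM in controls (2.90-fold lower, log2 change -1.48, limma adjusted p = 0.00130). Shank2 was at 9.08 and 7.0 FPKM in DCKO, against 16.0 and 17.8 FPKM in controls (log2 change -0.99, adjusted p = 0.0103). Shank3 was at 10.03 and 11.6 FPKM in DCKO, against 17.7 and 19.1 FPKM in controls (log2 change -0.72, adjusted p = 0.00970). All 3 had both DCKO libraries below both controls, as had 37.6% of all tested genes. Shank1 took 44.8% and 48.7% of the summed Shank FPKM in DCKO and 58.9% and 56.4% in controls.

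Homer proteins link Shank to metabotropic glutamate receptors and to calcium stores. Homer2 was at 4.08 and 5.48 FPKM in DCKO, against 14.6 and 13.0 FPKM in controls (2.89-fold lower, log2 change -1.36, limma adjusted p = 0.00597). Homer1, which has a short activity-induced form and was taken from the list of other postsynaptic genes, was at 6.17 and 6.50 FPKM in DCKO, against 12.2 and 15.5 FPKM in controls (log2 change -1.01, adjusted p = 0.00856). Homer3 was at 11.5 and 17.5 FPKM in DCKO, against 7.10 and 9.23 FPKM in controls. Its DCKO libraries were both higher, yet spread widely, and it did not pass with all 4 libraries (log2 change 0.74, SE 0.22, adjusted p = 0.0653). The call is close to the threshold: it passed without DCKO replicate 1 (log2 change 1.03, adjusted p = 0.0421), without control replicate 2 (0.91, 0.0459) and on the scaled counts (0.86, 0.0394). Without DCKO replicate 2 (0.46, adjusted p = 0.139) or control replicate 1 (0.57, 0.141) it was further from passing. Homer3 (chromosome 8, 70282827 to 70294361, + strand) shares 25.4% of its exon bases with Ddx49 on the opposite strand, and reads there cannot be assigned without a strand setting. Ddx49 itself was at 13.2 and 17.6 FPKM in DCKO, against 15.3 and 16.5 FPKM in controls (log2 change -0.06, adjusted p = 0.792).

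Proteins that traffic or anchor AMPA receptors showed both decreases and the single increase, with 4 of 6 lower and 1 higher. Grip1, a PDZ protein that binds AMPA receptor tails, was at 3.57 and 4.39 FPKM in DCKO, against 18.7 and 16.6 FPKM in controls. That is a 4.44-fold lower mean (log2 change -1.91, 95% confidence interval -2.21 to -1.61, limma adjusted p = 0.00169). Pick1, another PDZ protein that binds the same receptors, was at 26.6 and 25.03 FPKM in DCKO, against 30.2 and 28.2 FPKM in controls, and did not pass (log2 change -0.17, 95% confidence interval -0.36 to 0.02, adjusted p = 0.140), and with that centring the change was 0.0057. Pick1 shares 18.6% of its exon bases with the annotated gene Gm49486 on the same strand. Akap5, which anchors protein kinase A near the receptors, was at 2.70 and 3.29 FPKM in DCKO, against 7.11 and 6.95 FPKM in controls (log2 change -1.01, adjusted p = 0.00633).

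The exchange factors for Arf6, a small GTPase of receptor endocytosis, were split. Iqsec1 (chromosome 6, 90656088 to 90988685, - strand) was at 23.2 and 23.9 FPKM in DCKO, against 14.3 and 14.4 FPKM in controls. Replicates of each genotype nearly coincided, and it rose by 0.68 on the log2 scale (SE 0.06, limma adjusted p = 0.00463). Its paralogue Iqsec2 (chromosome X, 152144268 to 152225236, + strand) was at 8.96 and 10.3 FPKM in DCKO, against 24.3 and 24.98 FPKM in controls (2.56-fold lower, log2 change -1.27, adjusted p = 0.00224). Psd3, a further exchange factor for Arf6, was at 13.8 and 12.2 FPKM in DCKO, against 30.0 and 30.6 FPKM in controls (log2 change -1.16, adjusted p = 0.00241). Its relatives Psd and Psd2 are in the list of other postsynaptic genes. Psd was at 20.7 and 20.4 FPKM in DCKO, against 62.0 and 62.3 FPKM in controls (log2 change -1.55, adjusted p = 0.000745). Psd2 did not pass (log2 change 0.01, adjusted p = 0.932).

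The ratio of Iqsec1 to Iqsec2 was 2.59 and 2.32 in DCKO, against 0.587 and 0.578 in controls, so the more abundant paralogue of the pair differed between genotypes. The ratio of Homer3 to Homer2 was 2.82 and 3.20 in DCKO, against 0.485 and 0.713 in controls. In each of 5 ratios between paralogues or family members that were computed, the genotypes did not overlap. The pairs join genes chosen with earlier results of these data known. Each sets a gene that fell against a relative that was higher or changed less. Separation is thus no independent result, and its share over other gene pairs was not computed. The exact two-sided permutation test gave p = 0.333 for each of the 5 ratios, also after Benjamini-Hochberg adjustment. With 2 libraries against 2 it cannot give a lower p. Including Iqsec3, an inhibitory-synapse member that did not pass, the summed Iqsec FPKM was 80.3 and 81.8 in DCKO and 81.0 and 87.4 in controls. The summed Dlg FPKM was 127.8 and 129.4 in DCKO, against 229.1 and 241.9 in controls, and the summed Shank FPKM 34.6 and 36.2 in DCKO, against 81.9 and 84.6 in controls.

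**Figure D3:**
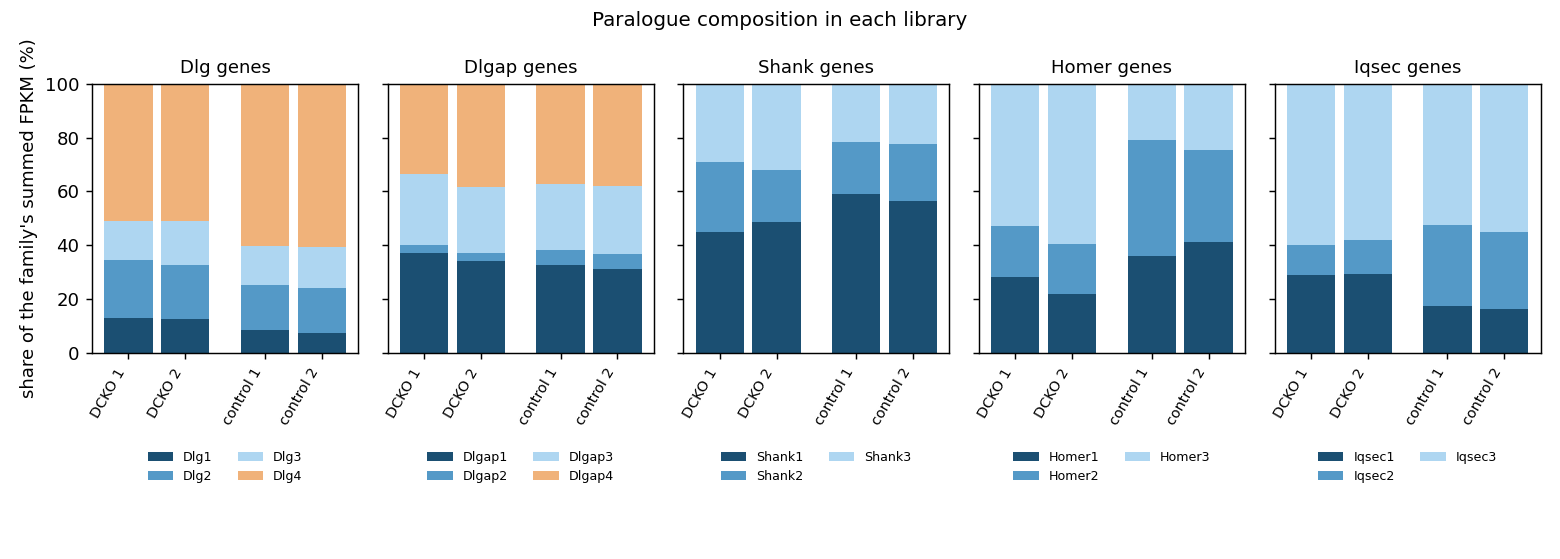
Share of each family's summed FPKM held by each paralogue, in percent, in the 2 DCKO libraries (left pair) and the 2 control libraries (right pair). Homer3 and Iqsec1 hold larger shares in DCKO (52.9% and 59.4% of Homer, 28.9% and 29.2% of Iqsec) than in controls (20.9% and 24.5%, 17.6% and 16.5%), while the Dlgap shares differ less.

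Regulators of small GTPases and spine actin fell in 6 of 6 cases, from mildly to more than 4-fold. Sipa1l1, a Rap GTPase-activating protein that shapes spines, was at 10.8 and 12.3 FPKM in DCKO, against 44.9 and 50.7 FPKM in controls. The decrease was 4.14-fold (log2 change -1.96, 95% confidence interval -2.22 to -1.70, limma adjusted p = 0.00114). Kalrn (chromosome 16, 33969073 to 34573532, - strand), a gene needed for spine growth, was at 3.57 and 3.397 FPKM in DCKO, against 15.3 and 15.9 FPKM in controls (4.47-fold lower, log2 change -1.89, adjusted p = 0.000803). Baiap2, a membrane-bending adaptor between Rac and actin, was at 22.3 and 20.4 FPKM in DCKO, against 45.6 and 47.5 FPKM in controls (log2 change -1.09, adjusted p = 0.00217). These 3 stood well clear of their controls.

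The remaining members of this group had smaller decreases. Ppp1r9b, the gene of the spine protein spinophilin, which binds protein phosphatase and actin, was at 71.3 and 72.6 FPKM in DCKO, against 101.3 and 100.05 FPKM in controls (log2 change -0.48, limma adjusted p = 0.00879). It had the highest DCKO mean of the 33 genes, above Dlg4, whereas in controls Dlg4 was above it. Ppp1r9a, the related neurabin gene, was at 11.0 and 10.2 FPKM in DCKO, against 13.9 and 14.4 FPKM in controls (log2 change -0.38, adjusted p = 0.0251). Lzts1, a density protein thought to act on spine GTPases, was at 5.01 and 5.09 FPKM in DCKO, against 7.33 and 9.32 FPKM in controls (log2 change -0.62, adjusted p = 0.0267). Both of these calls were lost when a library was left out: that of Ppp1r9a without DCKO replicate 2 (adjusted p = 0.0524) or control replicate 1 (0.0958) or 2 (0.142), and that of Lzts1 without DCKO replicate 1 (0.0869) or 2 (0.0750) or control replicate 2 (0.1004).

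Among other proteins of the density, 4 of 4 fell. Ddn (chromosome 15, 98803777 to 98809490, - strand), whose transcript is known to travel into dendrites, was at 8.31 and 8.26 FPKM in DCKO, against 50.1 and 55.5 FPKM in controls (6.37-fold lower, log2 change -2.53, 95% confidence interval -2.73 to -2.33, limma adjusted p = 0.000639). Its change ranked 65 from the lowest of 13434. Lrrc7, the gene of densin, was at 2.86 and 2.31 FPKM in DCKO, against 7.14 and 7.75 FPKM in controls (log2 change -1.24, adjusted p = 0.00441). Anks1b, a PSD-95-binding protein that can signal to the nucleus, was at 17.7 and 18.9 FPKM in DCKO, against 26.2 and 26.6 FPKM in controls (log2 change -0.50, adjusted p = 0.0106). The X-linked Ras pathway scaffold Cnksr2 was at 4.52 and 3.77 FPKM in DCKO, against 6.10 and 5.90 FPKM in controls (log2 change -0.45, adjusted p = 0.0389). The Cnksr2 call was lost without DCKO replicate 2 (adjusted p = 0.0709) and without control replicate 1 (0.149) or 2 (0.128).

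Of the 3 adhesion molecules of excitatory synapses, 2 fell. Icam5 (chromosome 9, 21032073 to 21039036, + strand), which is restricted to dendrites of forebrain neurons, was at 8.43 and 8.82 FPKM in DCKO, against 61.3 and 62.8 FPKM in controls. Its replicates nearly coincided in each genotype, and the decrease was the largest of the 33 genes (log2 change -2.71, SE 0.07, limma adjusted p = 0.000369), ranking 54 from the lowest of 13434. Icam5 shares 26.8% of its exon bases with the annotated antisense transcript Gm26592. Lrrc4 and Lrrc4c encode related ligands of netrin-G proteins that bind PSD-95. Lrrc4 was at 4.51 and 5.39 FPKM in DCKO, against 9.56 and 9.82 FPKM in controls (log2 change -0.85, adjusted p = 0.00801). Lrrc4c was at 8.87 and 7.87 FPKM in DCKO, against 7.62 and 7.78 FPKM in controls, and did not pass (log2 change 0.11, 95% confidence interval -0.12 to 0.33, adjusted p = 0.402).

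The 33 genes differ widely in length and in level, and neither was closely related to the change. They span from 5.7 kb for Ddn to 1972.6 kb for Dlg2, and 3 of them (Dlg3, Iqsec2 and Cnksr2) lie on chromosome X. Across the 33 genes, which share the same 4 libraries, Spearman's rho with the log2 change was 0.112 for gene span and -0.1 for mean FPKM. In 13 of 33 some exon bases are shared with another annotated gene, and in 3 (Homer3, Icam5 and Pick1) at least 10%.

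Sp-family factors are known to bind GC boxes, so 300-base windows around annotated gene starts were searched for GGGCGG on both strands. RefSeq windows in GRCm38.p6 were matched for 27 of the 33 genes, 53 windows in all. The GC box was found in at least 1 window of 20 genes and in 56.6% of the 53 windows, against 35.7% of all 32851 windows. Some genes have several windows, and some of these overlap, so the 53 are not separate units. The windows were not matched for G and C content or for expression, and the difference was not tested. The share of all genes with a GC box in at least 1 window was not computed. A cAMP response element, TGACGTCA on both strands, was in 0 of the 53 windows, against 1.8% of all windows. At so low a share, 0 in 53 windows is not read as a difference. A match is a description of letters, not a binding site. The most upstream RefSeq window of 5 genes is printed 5′ to 3′ on the gene's strand, with GC boxes on either strand in capitals. They show Icam5 and Kalrn, with decreases of more than 4-fold, the paralogues Iqsec2 and Iqsec1, which changed in opposite directions, and Homer3.
Icam5: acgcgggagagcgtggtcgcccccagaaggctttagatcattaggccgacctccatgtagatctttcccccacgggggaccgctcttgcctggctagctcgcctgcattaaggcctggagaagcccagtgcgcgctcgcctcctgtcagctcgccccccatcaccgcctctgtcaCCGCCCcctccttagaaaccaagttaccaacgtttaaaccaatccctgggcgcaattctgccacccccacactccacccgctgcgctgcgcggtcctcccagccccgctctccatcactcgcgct
Kalrn: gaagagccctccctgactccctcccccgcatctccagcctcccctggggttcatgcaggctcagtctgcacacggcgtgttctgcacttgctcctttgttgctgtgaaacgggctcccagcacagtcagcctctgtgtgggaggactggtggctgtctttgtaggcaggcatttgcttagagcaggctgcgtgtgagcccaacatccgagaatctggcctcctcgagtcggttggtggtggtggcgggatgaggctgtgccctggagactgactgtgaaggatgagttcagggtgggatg
Iqsec2: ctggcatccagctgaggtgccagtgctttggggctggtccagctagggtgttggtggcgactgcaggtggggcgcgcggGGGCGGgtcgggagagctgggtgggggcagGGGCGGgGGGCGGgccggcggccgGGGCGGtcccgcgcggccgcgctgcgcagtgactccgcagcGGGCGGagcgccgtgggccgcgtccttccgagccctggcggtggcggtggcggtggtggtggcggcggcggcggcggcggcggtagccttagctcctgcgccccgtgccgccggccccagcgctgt
Iqsec1: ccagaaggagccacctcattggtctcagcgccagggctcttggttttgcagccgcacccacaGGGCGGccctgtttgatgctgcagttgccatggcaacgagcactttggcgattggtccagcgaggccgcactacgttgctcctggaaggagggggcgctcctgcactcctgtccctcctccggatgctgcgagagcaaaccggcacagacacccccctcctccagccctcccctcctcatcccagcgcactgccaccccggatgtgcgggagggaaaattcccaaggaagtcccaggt
Homer3: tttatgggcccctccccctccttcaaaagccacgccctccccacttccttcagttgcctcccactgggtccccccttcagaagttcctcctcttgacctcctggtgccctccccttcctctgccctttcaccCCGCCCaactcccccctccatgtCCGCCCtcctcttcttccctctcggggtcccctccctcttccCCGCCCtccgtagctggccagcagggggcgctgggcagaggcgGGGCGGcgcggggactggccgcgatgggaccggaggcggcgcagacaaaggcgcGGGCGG

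The windows are chr9:21031788-21032087 (+) for Icam5, chr16:34513978-34514277 (-) for Kalrn, chrX:152144018-152144317 (+) for Iqsec2, chr6:90810074-90810373 (-) for Iqsec1 and chr8:70282749-70283048 (+) for Homer3. Those of Kalrn and Iqsec1 surround internal starts, which lie inside the gene spans of GENCODE M21 and downstream of their outermost starts. The printed windows of Homer3 and Iqsec2 each hold 5 GC boxes, those of Icam5 and Iqsec1 hold 1 each, and that of Kalrn holds 0. The other Iqsec1 window holds 2 and the other Iqsec2 window 0. Any relation of these numbers to the changes was not tested. The G and C content was 79.7% for Iqsec2, 69.7% for Homer3, 64.0% for Iqsec1, 63.7% for Icam5 and 60.3% for Kalrn.

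Other excitatory postsynaptic genes were mostly lower too, where 14.3% of all tested genes fell and 13% rose. Of 36 listed genes, all tested, 20 fell and 3 rose, with a median log2 change of -0.41; without control replicate 2 the number lower was 13. Those of largest change were Nos1, the neuronal nitric oxide synthase tethered to PSD-95 (1.64 and 1.70 FPKM in DCKO, against 11.8 and 11.3 FPKM in controls, log2 change -2.23), and Agap2, a GTPase-activating protein linked to Homer (39.7 and 39.5 FPKM in DCKO, against 149 and 159 FPKM in controls, -1.93). Camk2a, the kinase subunit abundant in spines, was at 30.7 and 28.0 FPKM in DCKO, against 97.0 and 107.6 FPKM in controls (-1.77). Mpp2, another guanylate kinase scaffold, was at 16.8 and 17.5 FPKM in DCKO, against 52.5 and 52.3 FPKM in controls (-1.56). Their limma adjusted p lay between 0.000742 and 0.00112. The genes that rose were Grasp (0.76), Lin7b (0.43) and Abi1 (0.25), named after their values were seen, and only 1 gene of the list was called higher without DCKO replicate 1, without DCKO replicate 2 or without control replicate 1.

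Scaffold and adhesion genes of inhibitory synapses included decreases and 1 increase, and their difference from the excitatory list was not tested. Of 9 listed genes, 8 were tested, 4 fell and 1 rose, with a median log2 change of -0.18. Over all tested genes 14.3% fell and 13% rose, so 1 rise in 8 is not read as a result about the list. Gphn, the gene of gephyrin, which anchors GABA-A and glycine receptors, was at 27.1 and 26.6 FPKM in DCKO, against 34.1 and 36.3 FPKM in controls (log2 change -0.38, limma adjusted p = 0.0187). Slitrk3, an adhesion molecule of inhibitory synapses, was at 3.04 and 3.47 FPKM in DCKO, against 10.5 and 10.9 FPKM in controls (-1.46, adjusted p = 0.00185). Lhfpl4, a GABA-A receptor auxiliary protein (-0.41), fell as well, and Fam196a rose (0.63). Without control replicate 1, 2 genes of the list fell and 0 rose, and without control replicate 2, 1 fell and 1 rose. The Gphn and Lhfpl4 calls were lost without either control (adjusted p of 0.0555 and 0.115 for Gphn, and 0.0553 and 0.0791 for Lhfpl4, without control replicate 1 and 2 in turn). That of Gphn was also lost with libraries centred on the general neuronal genes (-0.20, adjusted p = 0.0694). Fam196a lost its call without DCKO replicate 1 (0.0635), when 4 genes fell and 0 rose, or control replicate 1 (0.0622).

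The receptors that the scaffold holds were mostly lower as well, where 14.3% of all tested genes fell and 13% rose. Of 11 listed NMDA and AMPA receptor subunits, 10 were tested, 7 fell and 1 rose, with a median log2 change of -1.10. Grin2d (-2.09), Grin2b (-1.36), Gria4 (-1.31) and Grin2a (-1.23) were those of largest decrease, and Grin1, the subunit common to NMDA receptors, was at 57.6 and 45.8 FPKM in DCKO, against 119 and 122 FPKM in controls (limma adjusted p = 0.00502). Grin3a rose (0.91), Gria2 and Grin2c did not pass, and Grin3b lay below the filter.

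**Figure D4:**
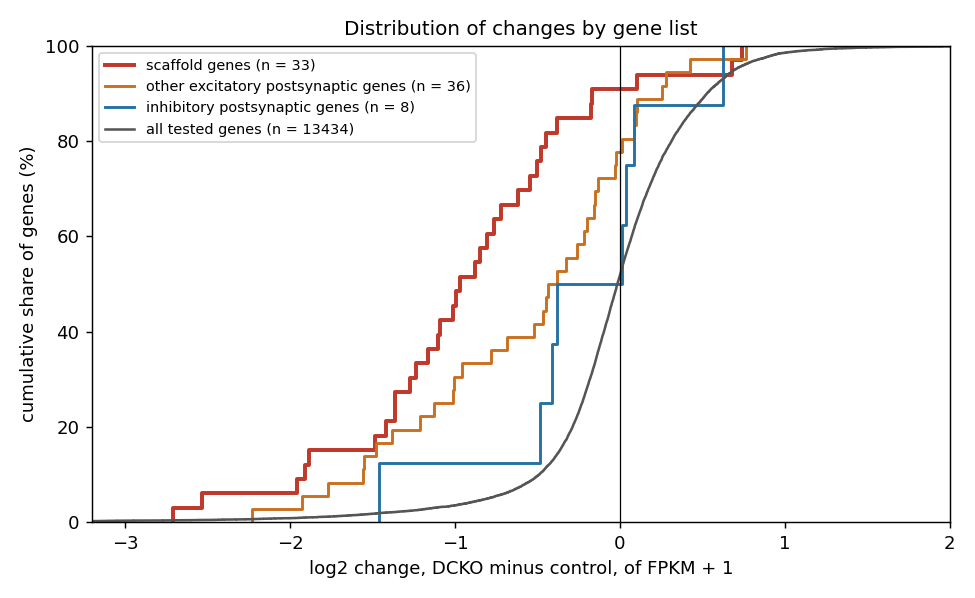
Cumulative share of genes, in percent, by log2 change (DCKO minus control, of FPKM + 1) for the 33 scaffold genes, 36 other excitatory postsynaptic genes, 8 inhibitory postsynaptic genes and all 13434 tested genes; the axis leaves out changes beyond its ends, which only the last of these has. The medians are -0.97, -0.41, -0.18 and -0.02.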

How the data were processed

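Total RNA of mouse olfactory bulbs was sequenced in 4 libraries, 2 DCKO and 2 control. Per the submitters' processing notes, reads went through TopHat (version not given) and Cufflinks 2.1.1 with GRCm38.p4, while annotation, aligner settings and strand were not found in the labels. The deposited table holds FPKM per gene and library, per the file headers. Its columns headed count hold a signal that the authors derived from read counts and deposited scaled, not as whole numbers. How it was scaled is not stated, so no count model was used. Columns were mapped to samples by the codes in the sample descriptions, and 0 were left unmapped.

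DCKO minus control was fitted on log2(FPKM + 1) with limma 3.58.1 in R 4.3.3, with an intensity trend, over the 13434 genes averaging 1 FPKM or more, two-sided. The 33 genes and all lists were chosen with earlier results of these data known. The text names Sp8, Sp9, all 33 genes, Homer1, Gphn and the up to 4 called genes of largest change in each of 3 postsynaptic lists; others are named after their values were seen, and 1 gene that the rule names is not reported here. With FPKM, counting error is not known per gene, and precision is read from the spread between libraries. For each gene this spread is partly borrowed from genes of similar level, so a small SE is not replicate agreement alone. The model was tested on simulated data. Alternatives covered pseudocount, filter, 3 scalings, trend, a replicate block, the scaled counts and each library left out. Gene positions come from GENCODE M21 (GRCm38) and promoter windows from RefSeq (GRCm38.p6).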

Additional observations from a re-analysis of the deposited data

How the results depend on the processing

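In 14 alternatives, the 33 genes gave 26 to 28 decreases under the 10 that kept all libraries, and the median log2 change ran from -0.997 to -0.71 over all 14. With 1 library left out, 25 to 27 fell and 1 to 2 rose. The number higher was 2 in place of 1 with libraries centred on general neuronal genes, with the replicate block and on scaled counts, since Homer3 then passed (adjusted p = 0.0231, 0.0167 and 0.0394). Calls of single genes among the 33 that were lost with all libraries kept were those of Cnksr2 (no filter, quantile normalization, neuronal centring and replicate block), Ppp1r9a (neuronal centring, adjusted p = 0.107, and replicate block, 0.0515) and Lzts1 (no filter, 0.0608). The sign turned with neuronal centring for Dlg1 (0.0078) and Pick1 (0.0057), neither of which passed in any alternative. Over all tested genes, neuronal centring gave 3611 higher and 1064 lower, and leaving out 1 library gave 806 to 1384 higher and 1030 to 1875 lower. In the list of other excitatory postsynaptic genes, the number higher was 5 with neuronal centring and 1 with no filter, no trend or the replicate block. It was 1 to 2 with 1 library left out, and 13 to 18 were then lower. For inhibitory postsynaptic genes, 2 rose with neuronal centring, and with 1 library left out 0 to 1 rose and 1 to 4 fell. The ionotropic receptor list had 1 higher in every alternative and 6 to 9 lower.

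Whether same-numbered libraries were paired in any way is not in the labels. The correlation of their deviations from the genotype means was -0.021 over 13434 genes, a value that cannot show whether they shared a batch. The replicate block left 1312 genes higher and 1418 lower. Where a library was left out of a genotype, the lone library was assumed to vary like the other pair. With 2 libraries a genotype, the exact permutation test of a single value cannot fall below 0.333.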
